A study of Mus musculus with 8 samples.

Results

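The genes described here are 10 regulators of muscle protein breakdown: the ubiquitin ligase genes *Fbxo32*, *Trim63*, *Trim54*, *Trim55*, *Fbxo30* and *Fbxo31*, the FoxO transcription factors *Foxo1*, *Foxo3* and *Foxo4*, and *Ddit4*, an inhibitor of growth signalling. They were chosen by name from their known roles in atrophy, with earlier results of these data known. They are 10 of the 16686 genes in the deposited table. All 10 passed the filter on low counts, which left 12542 genes for testing. RNA was sequenced from the tibialis anterior (TA), a fast-twitch muscle of the lower hind limb, of 8 male mice on the FVBN background, each 22 months old by its label. The wild-type group (WT, n = 4) carries the intact *Mybpc2* gene, which encodes fast myosin-binding protein C of the sarcomere. In the C2-/- group (n = 4), *Mybpc2* exons 2 to 22 were replaced in all cells by a Neo cassette flanked by loxP sites. The model is thus a lifelong loss in every tissue, and the labels name no treatment. The question addressed was which genes differ between aged muscle with and without fast myosin-binding protein C.

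Muscle loses mass when protein breakdown outpaces synthesis. Atrogin-1, the product of *Fbxo32*, is the substrate-recognition subunit of an SCF ubiquitin ligase, and MuRF1, the product of *Trim63*, is a RING-finger ligase that binds the sarcomere. Both are classical atrophy markers that are induced by fasting, denervation, disuse and glucocorticoids. FoxO factors drive their transcription in the nucleus, and Akt, downstream of insulin and insulin-like growth factors, phosphorylates FoxO and holds it in the cytoplasm. REDD1, the product of *Ddit4*, restrains the growth kinase complex mTORC1 and is itself induced by glucocorticoids, hypoxia and energy stress.

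The *Trim63* promoter is shown because both of these inputs, FoxO and the glucocorticoid receptor, can be read in its letters. Among the 10 genes, 7 had an entry in the table of RefSeq promoters (GRCm38.p6), which gives 250 bases before and 50 bases after the start of each gene, and *Fbxo32*, *Trim55* and *Foxo4* were not matched. The sequence below is the stretch directly upstream of the annotated start of *Trim63*, chr4:134314870-134315119 on the plus strand, with 2 motifs in capitals.
Trim63: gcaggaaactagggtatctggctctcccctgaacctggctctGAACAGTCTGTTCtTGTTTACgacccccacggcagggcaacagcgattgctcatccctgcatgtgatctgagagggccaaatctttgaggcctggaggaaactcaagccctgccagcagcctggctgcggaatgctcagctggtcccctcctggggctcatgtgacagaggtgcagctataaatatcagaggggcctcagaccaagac
The first capitals match the glucocorticoid receptor palindrome GAACANNNTGTTC, from 208 to 196 bases before the start. The second are TGTTTAC, the reverse complement of the FoxO core GTAAACA, from 194 to 188 bases before the start. Both strands of every window were searched, and the 2 matches do not overlap. Of all 32851 promoter windows, 3.65% held the FoxO core and 0.0578% (19 windows) held the palindrome. *Trim63* was the only one of the 7 genes whose window held either. The related FoxO motif CAAAACA was in 6.28% of all windows and in 0 of the 7. A match describes the letters only and does not show binding.

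Library totals lay between 25425993 and 29747692 counts, so that 3 counts, taken as the smallest level that can be shown, correspond to 0.104 to 0.116 CPM (counts relative to library size, TMM-scaled). This floor covers counting error only. Expression of *Mybpc2* was 4964 to 7392 CPM in WT and 3.85 to 38.3 CPM in C2-/-, where replicate 3 held the highest value (log2 fold change −8.82, Benjamini-Hochberg adjusted p = 0.0075 in the quasi-likelihood test of edgeR). Against the tissue label, *Myh4*, the myosin of the fastest fibres, was checked and stood at 27810 to 67070 CPM, while *Myh7*, the slow myosin, stood at 0.365 to 20.9 CPM. In whole muscle, fewer cells of a type and less RNA per cell cannot be told apart. Markers of fibro-adipogenic progenitors summed to 628.5 to 741 CPM in WT and 765 to 949 CPM in C2-/-, with 2 of 4 higher in C2-/- at an unadjusted p under 0.05 and none of the 4 at 0 throughout. Of 6 slow-fibre markers 2 were lower at that level, and their sums were 15.2 to 49.9 CPM in WT and 11.2 to 29.8 CPM in C2-/- (27.2 to 49.9 CPM in WT without replicate 2). Of 4 tested tendon markers 1 was higher in C2-/- at that level, with sums of 58.03 to 169.8 CPM in WT and 89.7 to 235 CPM in C2-/-. Summed markers of fast fibres, endothelium, macrophages, adipocytes, Schwann cells, satellite cells and blood overlapped between the groups.

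WT replicate 2 stood apart in these genes. It had the highest CPM of all 8 mice for 8 of the 10 and the lowest for the other 2, *Trim55* and *Foxo4*. The share of all tested genes for which this mouse was highest or lowest by any margin was not counted. WT replicate 2 exceeded every other mouse by more than 1.5-fold for 5 of the 10 (*Fbxo32*, *Trim63*, *Trim54*, *Foxo1* and *Foxo3*), as it did for 577 of the 12542 tested genes (4.6%). Each of the other 7 mice was highest by that margin for 0 of the 10 and for 0.120% to 0.718% of tested genes. WT replicate 2 was also below every other mouse by that margin for 649 tested genes (5.175%), and for 0 of the 10. For the other mice this share was 0.311% to 1.539%, so that WT replicate 2 differed in both directions well beyond these genes. The mouse was singled out after its values were seen. The comparison of the genotypes is therefore given with and without it for each of the 10 genes.

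*Fbxo32*, *Trim63*, *Foxo1* and *Ddit4* had the lowest estimates in C2-/- relative to WT, with log2 fold changes from −0.62 to −1.21, and none of the 10 genes passed the adjusted threshold. In the edgeR fit across all genes, 4 of the 12542 genes were called (adjusted p under 0.05 and above 1.5-fold, 0.0319%). For 8 of the 10 genes the estimate was lower in C2-/-, as for 54.2% of all tested genes, and the median log2 fold change was −0.31 for the 10 and −0.02 for all tested genes. At an unadjusted p under 0.05, 2 of the 10 were lower (*Fbxo32* and *Fbxo31*), against 1.91% of all tested genes, and 0 were higher, against 3.38%. With WT replicate 2 left out, 0 of the 10 reached that level in either direction, against 1.84% of all genes lower and 4.05% higher, and the median of the 10 was −0.09. Most of the difference between these medians was thus seen with that 1 mouse included.

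**Figure D1:**
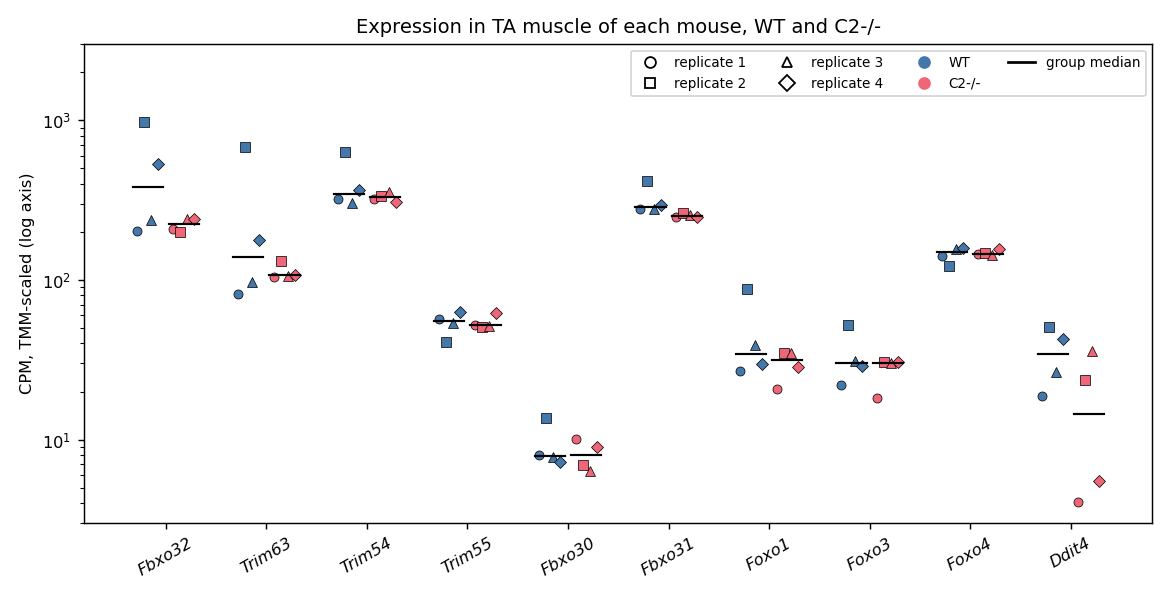
Expression of the 10 genes in each mouse, in CPM on a log axis, with WT in blue, C2-/- in red, a marker shape for each replicate number and a black line at each group median. WT replicate 2 (blue square) lies above the other mice for *Fbxo32* (971.5 CPM), *Trim63* (682 CPM) and *Foxo1* (87.4 CPM), and below them for *Trim55* and *Foxo4*.

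*Fbxo32* (gene ID 67731, chr15:58175879-58214892, minus strand), the atrogin-1 gene, was expressed at 202, 971.5, 236 and 530.0 CPM in WT replicates 1 to 4 and at 207.5, 200.3, 242 and 239 CPM in C2-/- replicates 1 to 4. WT replicates 2 and 4 were high, while WT replicates 1 and 3 lay within or near the narrow range of the knockouts. The mean was 485 ± 356 CPM in WT and 222 ± 21.5 CPM in C2-/- (SD, n = 4 each). The log2 fold change was −1.13 ± 0.42 (SE), with a 95% interval from −2.06 to −0.19, unadjusted p = 0.0234 and adjusted p = 0.857 in edgeR. An exact permutation test of the mean CPM, two-sided over the 8 mice, gave p = 0.314. The log2 fold change was −0.53 without WT replicate 2 (unadjusted p = 0.0863, edgeR), and the unadjusted p also passed 0.05 without C2-/- replicate 1 (0.0533, edgeR) or C2-/- replicate 2 (0.0545, edgeR).

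*Trim63* (gene ID 433766, chr4:134315120-134329629, plus strand), the MuRF1 gene whose promoter is printed above, was at 82.1, 682, 97.8 and 179 CPM in WT and at 104, 131, 106 and 108 CPM in C2-/-. WT replicate 2 was 6.98 times the median of the other WT mice, and WT replicate 4 was again the second highest. The log2 fold change was −1.21 ± 0.58 (SE; 95% interval −2.50 to 0.07; unadjusted p = 0.061, adjusted p = 0.968, edgeR). It was −0.08 when WT replicate 2 was left out (unadjusted p = 0.72, edgeR), so that the estimate rested on that mouse. The unadjusted p was 0.0186 without WT replicate 1 and 0.0237 without WT replicate 3 (edgeR).

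The MuRF proteins encoded by *Trim54* (MuRF3) and *Trim55* (MuRF2) are close relatives of MuRF1 that also associate with microtubules and the sarcomere. *Trim54* (gene ID 58522, chr5:31116612-31137626, plus strand) was at 322, 629, 305 and 367 CPM in WT and at 322, 335, 356 and 309 CPM in C2-/-. WT replicate 2 was again alone at the top, and the log2 fold change moved from −0.30 ± 0.21 (SE) with all mice to 0.00 without it (unadjusted p = 0.191 and 0.985, edgeR). *Trim55* (gene ID 381485, chr3:19644343-19692348, plus strand) was at 57.2, 40.8, 54.0 and 62.7 CPM in WT and at 52.4, 51.1, 51.6 and 61.7 CPM in C2-/-. Here WT replicate 2 was the lowest mouse, at 0.713 times the median of the other WT mice. The log2 fold change of *Trim55* was 0.01, with a 95% interval from −0.30 to 0.33, and it was −0.09 without WT replicate 2.

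*Fbxo30* and *Fbxo31* encode F-box proteins, which like atrogin-1 select the substrates of SCF ligases. The *Fbxo30* product, MUSA1, is known from denervation atrophy, and the *Fbxo31* product from degradation of cyclin D1. *Fbxo31* (gene ID 76454, chr8:121549443-121578863, minus strand) was at 278, 413.6, 278 and 293.5 CPM in WT and at 247, 262, 256 and 248 CPM in C2-/-. It was the 1 gene of the 10 for which every C2-/- mouse lay below every WT mouse, as was the case for 1.36% of all tested genes. The log2 fold change was −0.32 ± 0.14 (SE; 95% interval −0.63 to −0.01; unadjusted p = 0.0472, adjusted p = 0.927, edgeR). The exact permutation test gave p = 0.0286, the smallest that 4 mice against 4 allow. The estimate was −0.15 without WT replicate 2 (unadjusted p = 0.11, edgeR), and leaving out WT replicate 4 or any single C2-/- mouse also took the unadjusted p over 0.05, to 0.0585 to 0.0971 in edgeR. *Fbxo31* lies within *Gm20388* on the opposite strand, and its count is uncertain to that extent.

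*Fbxo30* (gene ID 71865, chr10:11281330-11297969, plus strand) was the lowest of the ligase genes, at 7.98, 13.7, 7.80 and 7.27 CPM in WT and 10.1, 6.92, 6.38 and 9.05 CPM in C2-/-. The groups overlapped, and the log2 fold change of −0.18 ± 0.23 (SE) turned to 0.09 without WT replicate 2.

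**Figure D2:**
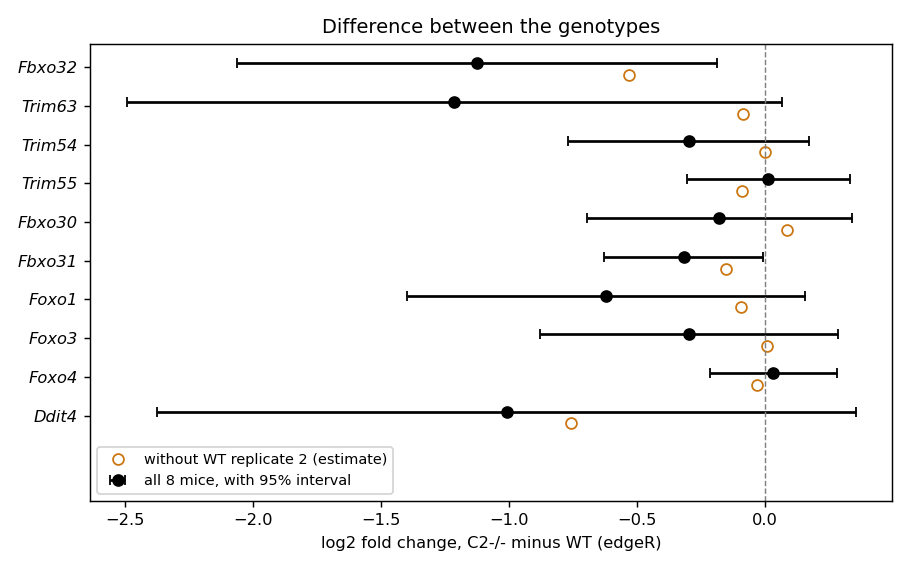
Log2 fold change of each gene, C2-/- minus WT, from the edgeR fit, with all 8 mice (filled points, bars are 95% intervals) and without WT replicate 2 (open points, estimate alone). With all mice the intervals of *Fbxo32* and *Fbxo31* exclude 0, and without WT replicate 2 the estimates of *Trim63*, *Trim54*, *Foxo1* and *Foxo3* lie between −0.09 and 0.01.

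The FoxO factors differed among themselves in how they varied between mice. *Foxo1* (gene ID 56458, chr3:52268337-52353381, plus strand) was at 26.8, 87.4, 39.3 and 29.7 CPM in WT and at 20.9, 35.1, 34.7 and 28.4 CPM in C2-/-. *Foxo3* (gene ID 56484, chr10:42180207-42276746, minus strand) was at 22.1, 52.4, 31.0 and 29.1 CPM in WT and at 18.1, 30.5, 30.3 and 30.7 CPM in C2-/-. For both genes WT replicate 2 was the highest mouse, C2-/- replicate 1 the lowest and WT replicate 1 the second lowest. The log2 fold change was −0.62 ± 0.35 (SE) for *Foxo1* (unadjusted p = 0.106, edgeR) and −0.30 ± 0.26 for *Foxo3* (unadjusted p = 0.283, edgeR). The estimates were −0.09 and 0.01 without WT replicate 2, and for *Foxo1* the unadjusted p was 0.0427 without WT replicate 1 (edgeR). *Foxo4* (gene ID 54601, chrX:101254259-101260873, plus strand) had the lowest coefficient of variation of the 10 in WT (11.6%), at 140.4, 122, 157 and 158 CPM in WT and 144, 148, 142 and 157 CPM in C2-/-. WT replicate 2 was the lowest mouse for *Foxo4*, and the 95% interval of its log2 fold change ran from −0.21 to 0.28.

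*Ddit4* (gene ID 74747, chr10:59949675-59951770, minus strand), the REDD1 gene, was at 18.7, 51.1, 26.5 and 42.7 CPM in WT and at 4.05, 23.5, 36.0 and 5.48 CPM in C2-/-. C2-/- replicates 1 and 4 were below every WT mouse, while C2-/- replicates 2 and 3 were inside the WT range. The coefficient of variation was 42.5% in WT and 88.7% in C2-/-, the latter above that of 99.4% of all tested genes in C2-/-. For *Ddit4* the log2 fold change was −1.01 ± 0.62 (SE; 95% interval −2.38 to 0.36; unadjusted p = 0.131, adjusted p = 0.968, edgeR), and −0.76 without WT replicate 2 (unadjusted p = 0.26, edgeR). Without C2-/- replicate 3, the highest of its group, the log2 fold change was −1.66 (unadjusted p = 0.023, edgeR). The estimate was −0.67 without C2-/- replicate 1, so that it depended on which knockouts were included.

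Glucocorticoid-response genes and immediate early genes were read beside *Ddit4* in each mouse. *Tsc22d3*, which encodes the glucocorticoid-induced protein GILZ, was at 212, 296, 253 and 244 CPM in WT and 157, 223, 262 and 180.0 CPM in C2-/-. Its lowest mice were C2-/- replicates 1 and 4, the same pair as for *Ddit4*. Summed over 6 glucocorticoid-response genes, none of which passed an unadjusted p under 0.05, the level was 634.5 to 1205 CPM in WT and 399.8 to 781 CPM in C2-/-. *Fkbp5*, a further glucocorticoid-induced gene, was at 29.5, 205, 47.9 and 22.2 CPM in WT and 22.6, 24.3, 67.9 and 19.5 CPM in C2-/-, highest in WT replicate 2. *Fos*, a gene induced within minutes of stimulation, was at 4.47, 70.9, 7.80 and 245 CPM in WT and 1.86, 123, 2.23 and 0.901 CPM in C2-/-. The 3 mice with high *Fos* thus included both WT mice with high *Fbxo32* and C2-/- replicate 2, in which *Fbxo32* was at 200.3 CPM. With the level of the immediate early genes as a covariate, the log2 fold change was −0.59 for *Fbxo32*, −0.46 for *Trim63* and −0.65 for *Ddit4* (unadjusted p = 0.235, 0.479 and 0.333, edgeR). Summed over 6 immediate early genes, the level was 542.6 and 1227 CPM in WT replicates 2 and 4 and 762.4 CPM in C2-/- replicate 2. In the other mice it was 34.9 to 83.1 CPM. The covariate was thus high in WT replicate 2 too, so its part cannot be told apart from that mouse. The part of the immediate early or the glucocorticoid-response genes in the levels of *Fbxo32*, *Trim63* and *Ddit4* was not tested.

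**Figure D3:**
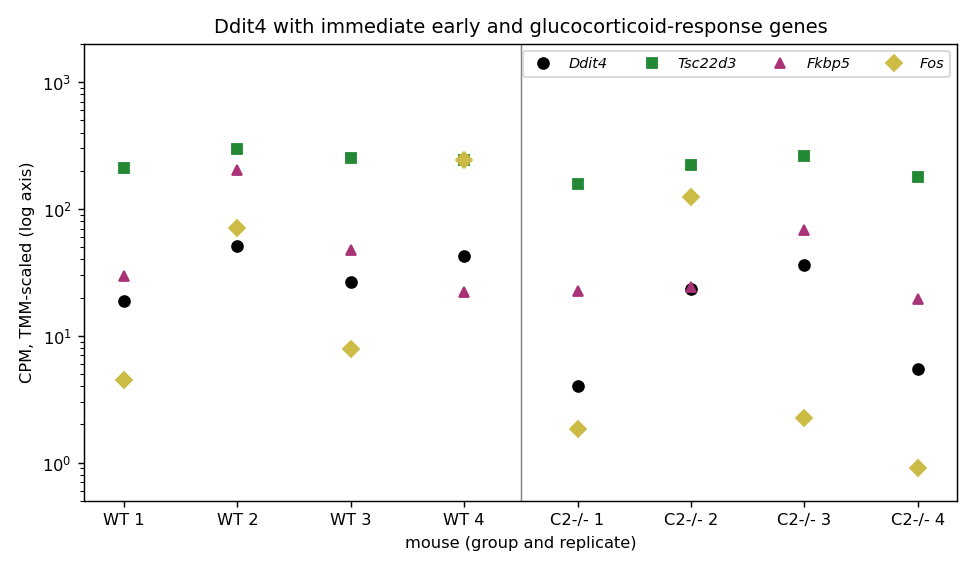
Expression of *Ddit4*, *Tsc22d3*, *Fkbp5* and *Fos* in each mouse, in CPM on a log axis, with WT at left and C2-/- at right. *Ddit4* and *Tsc22d3* share their lowest mice, C2-/- replicates 1 and 4, whereas *Fos* is high in WT replicates 2 and 4 and C2-/- replicate 2.

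The spread within a genotype was wider in WT than in C2-/- for all 6 ligase genes with every mouse included, and for 4 of the 6 without WT replicate 2. The coefficient of variation of *Trim63* was 109% in WT and 11.0% in C2-/-, and that of *Fbxo32* was 73.4% and 9.66%. For *Fbxo31* it was 20.8% and 2.92%. Over all tested genes the median was 19.8% in WT and 14.0% in C2-/-. No test of the spread was made. The share of all tested genes with a wider spread in WT was not counted, with or without WT replicate 2. With WT replicate 2 left out (n = 3), the WT coefficient of variation was 43.5% for *Trim63*, 55.8% for *Fbxo32*, 9.56% for *Trim54* and 3.19% for *Fbxo31*, still above C2-/-. It was 4.79% for *Fbxo30* and 7.58% for *Trim55*, below the 21.8% and 9.29% in C2-/-. Outside the ligases it was also below C2-/- for *Foxo1* (20.4% against 22.4%), *Foxo3* (17.2% against 22.5%) and *Ddit4* (41.6% against 88.7%). For *Foxo4* it was above C2-/- (6.5% against 4.33%).

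Levels can be compared between genes in TPM, the deposited values that are scaled for transcript length and library size. By the median over the 8 mice the order was *Trim54* (425 TPM), *Fbxo31* (112), *Trim63* (110.2), *Foxo4* (87.4), *Fbxo32* (65.5), *Trim55* (49.7), *Ddit4* (30.2), *Foxo1* (10.8), *Foxo3* (8.43) and *Fbxo30* (3.10). *Trim54* was thus the most abundant and its lowest mouse, at 385 TPM, was above the highest for *Fbxo31*, at 152 TPM. Every other neighbouring pair overlapped in range over the mice. Within single mice, *Fbxo32* exceeded *Trim55*, *Foxo1* exceeded *Foxo3* and *Foxo3* exceeded *Fbxo30* in 8 of 8. *Fbxo31* exceeded *Trim63* in only 2 of 8, so that their order is not settled by the medians. *Trim63* ranged from 78.9 to 610 TPM, the widest span among the ligases.

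Some of the 10 genes varied together across mice, and most such pairs rested on WT replicate 2. Of the 45 pairs, 12 had a Pearson r of log2 CPM above 0.8 over the 8 mice, and 2 had one without WT replicate 2. *Foxo1* and *Foxo3* had r = 0.939 (exact permutation p = 0.00067, 0.0301 after Benjamini-Hochberg adjustment over the 45 pairs) and Spearman's rho = 0.857 (exact permutation p = 0.0107, adjusted 0.432). This was the only pair with an adjusted p under 0.05 for r, and there was none for rho. Without the 2 mice farthest from the median of *Foxo1*, WT replicate 2 and C2-/- replicate 1, r was 0.657, and without WT replicate 2 alone it was 0.872. *Fbxo32* and *Trim63* had r = 0.936 (exact permutation p = 0.00932, adjusted 0.091) and rho = 0.595 (exact permutation p = 0.132, adjusted 0.592). Without WT replicate 2 alone their r was 0.805. Without WT replicates 2 and 4 it was −0.01, so that the relation rested on those mice. After centring within each genotype r was 0.938 for *Foxo1* and *Foxo3* and 0.943 for *Fbxo32* and *Trim63*.

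**Figure D4:**
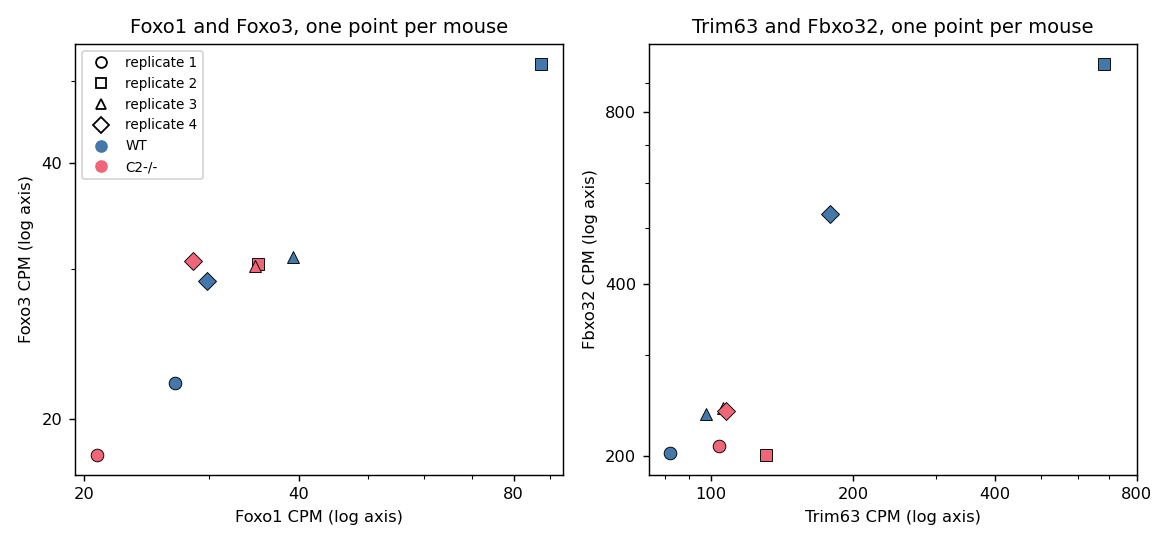
Paired levels in each mouse, in CPM on log axes, for *Foxo1* against *Foxo3* (left) and *Trim63* against *Fbxo32* (right), with WT in blue and C2-/- in red. The right panel shows 6 mice in a cluster near 200 to 242 CPM of *Fbxo32*, with WT replicates 4 and 2 far above, while at left the other mice also spread along the line.

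Of 8656 tested genes with a mean of at least 5 CPM, those most like each of 4 members were listed by Pearson r of log2 CPM over the 8 mice, as a description. The nearest to *Fbxo32* were *Pes1* (r = 0.975) and *Bclaf1* (0.975), and the nearest to *Trim63* were *Rbl2* (0.991), *Spsb1* (0.988) and *Med15* (0.986). The nearest to *Foxo1* were *Ticam1* (0.986), *Amotl2* (0.980) and *Map3k6* (0.979). For *Ddit4* they were *Ddx3y* (0.963), *Tsc22d3* (0.961) and *Arrdc3* (0.960). The points share the depth and composition of each library, WT replicate 2 included. Without that mouse the r of these genes lay between 0.883 and 0.969.

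Genes that FoxO factors are known to activate were often highest in WT replicate 2. Of 20 such genes, 17 had lower estimates in C2-/-, against 54.2% of all tested genes. At an unadjusted p under 0.05, 4 were lower (*Cdkn1a*, *Cdkn1b*, *Sesn1* and *Klf15*; 1.91% of all tested genes), with 0 higher and 0 past the adjusted threshold in edgeR. The median log2 fold change was −0.40, against −0.02 over all tested genes. With WT replicate 2 left out, 11 of the 20 estimates were lower and 9 higher, against 50.5% of all tested genes lower, and the median was −0.03. WT replicate 2 exceeded every other mouse by more than 1.5-fold in 12 of the 20, against 4.6% of all tested genes. It was below every other by that margin in 2 (*Sesn3* and *Txnip*), against 5.175% of all tested genes. Both the list and this mouse were chosen with results of these data known, so these shares are a description and not a test. The 12 were the autophagy genes *Bnip3*, *Map1lc3b*, *Gabarapl1*, *Ulk1* and *Ctsl*, the growth-arrest and stress genes *Gadd45a*, *Cdkn1a*, *Ccng2* and *Sesn1*, and *Klf15*, *Eif4ebp1* and *Pdk4*. Leaving out that mouse, 1 of the 20 was lower at an unadjusted p under 0.05 (*Cdkn1b*), against 1.84% of all tested genes.

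*Cdkn1a*, encoding the cell-cycle inhibitor p21, was 404.7 CPM in WT replicate 2 and 22.6 to 43.1 CPM in the other 7 mice, and was named after its values were seen. *Sesn1*, encoding a sestrin that restrains mTORC1, was 72.0 CPM in WT replicate 2 and 10.1 to 15.2 CPM in the others. *Klf15*, a glucocorticoid-induced transcription factor, was at 45, 99.6, 43.5 and 60.5 CPM in WT and 35.3, 44.7, 28.7 and 43.5 CPM in C2-/-. Its log2 fold change was −0.71 ± 0.26 (SE; unadjusted p = 0.022, adjusted p = 0.852, edgeR), and −0.38 without WT replicate 2. *Cdkn1b*, encoding p27, was at 31.3, 34.4, 23.6 and 32.2 CPM in WT and 24.1, 24.7, 21.3 and 24.2 CPM in C2-/-. WT replicate 2 was not apart here, and the log2 fold change was −0.36 ± 0.13 with all mice and −0.29 without it (unadjusted p = 0.021 and 0.0495, edgeR). The adjusted p with all mice was 0.849 in edgeR. The unadjusted p was over 0.05 without WT replicate 4 (0.0639, edgeR) or C2-/- replicate 3 (0.0581, edgeR). It was 0.0702 with the immediate early gene level as covariate (edgeR).

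**Figure D5:**
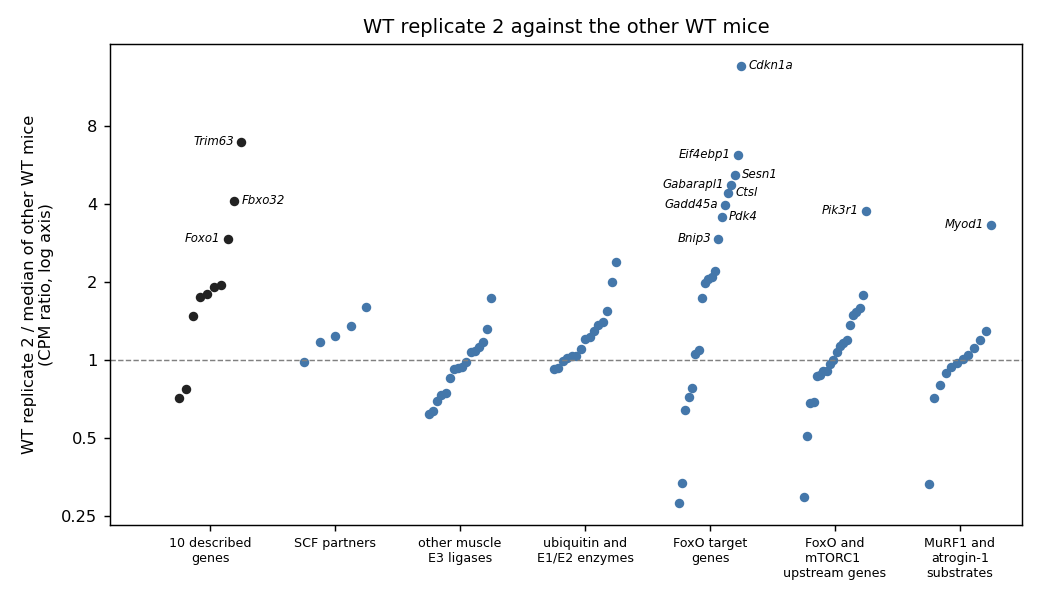
CPM of WT replicate 2 divided by the median of the other 3 WT mice, on a log axis, with 1 point per gene for the 10 described genes and for 6 lists of related genes, sorted within each list. The ratio reaches 6.98 for *Trim63* and 13.7 for *Cdkn1a*, and the SCF partners and other muscle ligases stay at or under 1.74.

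Upstream of FoxO and mTORC1, 16 of 20 genes had lower estimates in C2-/-, against 54.2% of all tested genes. The median was −0.09, against −0.02 over all tested genes. Without WT replicate 2, 11 were lower, against 50.5% of all tested genes, and the median was −0.04. With all mice, 1 was lower at an unadjusted p under 0.05, against 1.91% of all tested genes. This was *Ddit4l*, the paralog of *Ddit4* that encodes the mTORC1 inhibitor REDD2. It was at 312, 283, 253 and 456 CPM in WT and 179, 245, 235 and 240.2 CPM in C2-/-. Every C2-/- mouse thus lay below every WT mouse, as was the case for 1.36% of all tested genes. Its log2 fold change was −0.54 ± 0.19 (SE; unadjusted p = 0.0165, adjusted p = 0.816, edgeR), and −0.59 without WT replicate 2. It was −0.32 without WT replicate 4 (unadjusted p = 0.059, edgeR), the highest mouse, and −0.43 without C2-/- replicate 1 (unadjusted p = 0.0533, edgeR). *Foxo6*, a FoxO factor outside the 10, was at 8.64, 4.2, 14.1 and 14.4 CPM in WT and 16.9, 20.0, 15.4 and 14.2 CPM in C2-/- (log2 fold change 0.68 ± 0.32, unadjusted p = 0.0593, and 0.43 with unadjusted p = 0.0474 without WT replicate 2, edgeR). WT replicate 2 was the lowest mouse for *Foxo6*, in contrast to *Foxo1* and *Foxo3*. *Akt1*, a kinase that inactivates FoxO, was highest in WT replicate 2 at 113 CPM, against 44.5 to 68.1 CPM in the others. The more abundant *Akt2* was not, at 363.6 CPM in WT replicate 2 and 320.1 to 395.9 CPM in the others.

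In other parts of the ubiquitin machinery no gene passed an unadjusted p under 0.05, against 1.91% of all tested genes lower and 3.38% higher. At these shares, 0 in lists this short does not set them apart from other genes. Of 5 measured SCF partners, 0 passed in edgeR, with 4 estimates lower and 1 higher. Their median log2 fold change was −0.037, against −0.02 over all tested genes (0.007 without WT replicate 2). *Cul1*, the scaffold, was at 77.5 to 130.4 CPM, *Skp1a*, the adaptor, at 82.5 to 109 CPM, and *Rbx1*, the RING subunit, at 43.1 to 52.8 CPM over the 8 mice. Of 16 other muscle ligases, 0 passed, with a median log2 fold change of −0.03, against −0.02 over all tested genes (−0.07 without WT replicate 2). *Fbxo40*, a ligase of the insulin receptor substrate, was at 368 to 458 CPM in WT and 346 to 420.0 CPM in C2-/-. *Mdm2*, the ligase of p53, was at 57.4 to 80.1 CPM and 53.8 to 63.3 CPM. *Cblb*, a ligase known from unloading atrophy, was 41.4 CPM in WT replicate 2 and 17.9 to 26.2 CPM in the others.

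Of 15 genes for ubiquitin and its activating and conjugating enzymes, 13 had lower estimates in C2-/-, against 54.2% of all tested genes. At an unadjusted p under 0.05, 0 passed in edgeR, against 1.91% of all tested genes lower and 3.38% higher. The median was −0.09, against −0.02 over all tested genes. Without WT replicate 2, 11 were lower, against 50.5% of all tested genes, and the median was −0.04. The stress-inducible polyubiquitin gene *Ubb* again peaked in WT replicate 2, at 2303 CPM against 1036 to 1304 CPM in the others. *Rps27a*, which encodes ubiquitin fused to a ribosomal protein, was at 71.4 to 118 CPM in WT and 50.02 to 87.8 CPM in C2-/-.

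Among 12 genes for known or proposed substrates of MuRF1 and atrogin-1, 6 estimates were lower and 6 higher, with a median of 0.01 (5 lower, 7 higher and 0.045 without WT replicate 2). With all mice, 1 of the 12 was higher at an unadjusted p under 0.05, against 3.38% of all tested genes. This was *Vim*, the intermediate filament gene of mesenchymal cells. *Vim* was at 83.1, 87.3, 91.9 and 82.0 CPM in WT and 104, 122, 128 and 91.2 CPM in C2-/-. Its log2 fold change was 0.37 ± 0.13 (SE; unadjusted p = 0.0138, adjusted p = 0.778, edgeR) and 0.39 without WT replicate 2, beside the higher progenitor markers given above, whose part in it was not tested. *Myod1*, the myogenic factor and an atrogin-1 substrate, was at 46.6, 155, 51.1 and 36.2 CPM in WT and 50.6, 56.8, 115 and 82.5 CPM in C2-/-. Its log2 fold change was 0.08 with all mice (unadjusted p = 0.858, edgeR) and 0.78 without WT replicate 2, its highest mouse (unadjusted p = 0.0144, edgeR). *Myh1*, the myosin of type IIx fibres, was at 5101 to 8550 CPM in WT and 7584 to 9413 CPM in C2-/-. *Eif3f*, a translation factor degraded by atrogin-1, was at 193.5 to 282 CPM and 199.7 to 230.0 CPM.

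The counts of some genes are uncertain because the sources used here do not state that counting used the strand. Antisense transcripts overlap *Fbxo32*, *Trim54* and *Foxo1*. The deposited table also lists very long intervals for some other genes. That of *Egr2* runs over *Fbxo30*, *Foxo3* and *Ddit4*, and those of several genes, such as *Zfp534*, run over *Trim63*.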

How the data were processed

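Poly(A) RNA of 8 TA muscles was sequenced, 1 library per mouse. Alignment by HISAT to GRCm38.p6 and counting by featureCounts are named in the methods, and the submitters' processing notes also list Bowtie2 and DESeq2. The authors deposited expected counts per gene, of which 5.5% to 6.53% per mouse are not whole, and TPM values per mouse. The 8 columns of further per-mouse values and the authors' own log2 fold changes, p-values and q-values were not used. Of 16687 rows, 1 had no gene ID, and 25 symbols were restored from gene IDs.

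Expected counts were rounded and tested with edgeR 4.0.16 (R 4.3.3; quasi-likelihood test, TMM factors, default filter, Benjamini-Hochberg). Both groups carry replicate numbers, with no stated pairing. Alternatives used DESeq2 1.42.0 and limma 3.58.1. The test was tested on simulated data. Single values were compared by exact permutation tests over all splits or orders of the mice (Python 3.11.15, numpy 2.4.6). Ranks and the adjustment of the correlation p-values came from scipy 1.17.1.

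The members and lists were chosen with earlier results of these data known. Named genes are the 10 members, *Mybpc2*, the 3 genes per list with the smallest p, the 3 most similar genes for 4 members, and the stress and myosin genes *Fos*, *Fkbp5*, *Tsc22d3*, *Myh4* and *Myh7*. Other named genes were chosen after their values were seen. Some genes that this rule names are not reported here. One growth note in the labels gives an age of 2 months, against 22 months in the age label and the dissection note of every mouse.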

Additional observations from a re-analysis of the deposited data

Results flagged for a closer look

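In 68 groups of 4 mice examined, 14 held a mouse whose gap to its nearest neighbour, as a share of the range of the group, was above Dixon's 95% critical value for 4 values. That value flags about 1 in 20 groups of independent, normally distributed values. The groups here share the same mice, hold untransformed CPM and include genes picked by their p, so this rate does not show what chance gives here. Of the 14, 6 were for the 10 described genes. In WT, replicate 2 was set apart upward for *Trim63* (0.839), *Fbxo30* (0.89) and *Fbxo31* (0.883), and also for *Sesn1* (0.943) and *Fkbp5* (0.859). For *Fbxo32* and *Foxo1*, in which replicate 2 was also highest, the gap of that mouse was below the critical value. In C2-/-, *Trim63* was set apart upward in replicate 2 (0.855), *Trim55* upward in replicate 4 (0.872) and *Foxo3* downward in replicate 1 (0.966).

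The remaining gaps were upward for *Rbx1* in C2-/- replicate 1 (0.831), *Mybpc2* in C2-/- replicate 3 (0.985), *Fos* in C2-/- replicate 2 (0.989), *Fkbp5* in C2-/- replicate 3 (0.901) and *Myh7* in WT replicate 4 (0.89), and downward for *Ddit4l* in C2-/- replicate 1 (0.858).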

How the results depend on the processing

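Each value of the 10 genes was recomputed under 16 alternatives. Of 160 values, 153 kept the direction and 0 passed the adjusted threshold (smallest adjusted p 0.485). Without WT replicate 2 the direction reversed for *Trim54* (0.002), *Trim55* (−0.090), *Fbxo30* (0.086), *Foxo3* (0.008) and *Foxo4* (−0.032), and for *Trim55* also without C2-/- replicate 4 (−0.054) and with the immediate early gene level as covariate (−0.011). Leaving out single mice gave *Fbxo32* −1.38 to −0.53, *Trim63* −1.51 to −0.08, *Trim54* −0.40 to 0.002, *Trim55* −0.09 to 0.11, *Fbxo30* −0.29 to 0.086, *Fbxo31* −0.37 to −0.15, *Foxo1* −0.81 to −0.09, *Foxo3* −0.45 to 0.008, *Foxo4* −0.032 to 0.091 and *Ddit4* −1.66 to −0.67.

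Called genes numbered 4, and 38 with DESeq2 and 4 to 7 leaving out single mice (7 without WT replicate 2). Genes at an unadjusted p under 0.05 numbered 663, and 429 with the covariate. Members at that level numbered 2, with 1 by library size alone, 1 with limma-voom, 1 with at least 10 counts in every mouse, 0 with the covariate and 0 to 4 leaving out single mice (4 without WT replicate 1, 0 without WT replicate 2 or C2-/- replicates 1 or 2). FoxO targets numbered 4, with 2 by limma-voom, 2 with the replicate block, 0 with the covariate and 0 to 10 leaving out single mice (10 without WT replicate 3, 0 without C2-/- replicate 3). Upstream genes numbered 1, with 2 by library size alone, DESeq2, limma-voom or no filter, 0 with the covariate and 0 to 2 leaving out single mice. Substrates numbered 1, with 2 under the replicate block and 1 to 2 leaving out single mice. Other ligases gave 0 to 2 and ubiquitin genes 0 to 2 leaving out single mice. The cause of these changes was not tested. Pairs of members with an r beyond 0.8 in either direction numbered 13, and 1 without the 2 farthest mice and 3 without WT replicate 2, an alternative chosen after seeing the data.

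The replicate numbers are not stated to pair mice, and deviations of same-numbered mice correlated at 0.267, 0.042, −0.051 and 0.021. With the replicate block, 4 genes were called and 2 members had an unadjusted p under 0.05. *Ddit4* had a log2 fold change of −1.45 with the block and −1.46 with limma-voom (unadjusted p = 0.0233 and 0.0401), and *Fbxo32* −0.82 and −0.84 (unadjusted p = 0.0637 and 0.0697), in fits across all genes with edgeR and limma.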
